A study of Arabidopsis thaliana with 4 samples.

Results

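The microRNAs (miRNAs) miR156 and miR157 of Arabidopsis thaliana were followed on 4 one-colour Cy3 arrays by their probes ath-miR156a, ath-miR156g, ath-miR156h, ath-miR157a and ath-miR157d, chosen by name. They are 5 probes beside 208 for other Arabidopsis miRNAs, and each was printed at 12 repeat spots per array. The 4 arrays are ABR17_salt and ABR17_control, from seedlings transgenic for the cDNA of ABR17 and grown on medium with 100 mM or 0 mM NaCl, and WT_salt and WT_control, from wild type seedlings on the same media. ABR17 is an abscisic acid-responsive pea protein, one of the PR10 family of pathogenesis-related proteins. The promoter of the transgene and the number of transgenic lines were not stated in the labels. The seedlings were grown for 2 weeks, although the growth protocol also mentions 7 days. Each group had 1 array, while the series' design text speaks of 3 biological replicates. No difference between arrays therefore has a replicate check or a p-value. Errors given below come from the 12 repeat spots of a probe and cover only the spread between spots within 1 array. They cover neither differences in hybridisation and scan between arrays nor the variation between seedlings. In RNA from whole seedlings, fewer cells making a miRNA and less of it per cell cannot be told apart.

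miR156 and its close relative miR157 bind the messenger RNAs of SQUAMOSA PROMOTER BINDING PROTEIN-LIKE (SPL) transcription factors and lower their output. They are abundant in young seedlings and decline as the shoot ages, which releases the SPL factors and lets the plant pass from juvenile to adult leaves and later to flowering. Among the genes that SPL factors activate is MIR172b, whose miRNA in turn limits AP2-like repressors of flowering. The comparisons address how salt and the transgene relate to the levels of these miRNAs.

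The target sequences listed in the array files show how close the probes are to each other, which matters for reading their signals. They are given 5′ to 3′ with the seed, bases 2 to 8, in capitals. Plant miRNAs pair with their targets along most of their length, so the seed serves here only to group them.
miR156a: uGACAGAAgagagugagcac
miR156g: cGACAGAAgagagugagcac
miR156h: uGACAGAAgaaagagagcac
miR157d: uGACAGAAgauagagagcac
miR157a: uUGACAGAagauagagagcac
The seed GACAGAA was shared by miR156a, miR156g, miR156h and miR157d and by no other probe of the array. The target of miR157a has 1 more base at its 5′ end, which shifts its seed to UGACAGA. Its last 20 bases equal miR157d. The same RefSeq table that names their genes (TAIR10.1) lists MIR156a as AT2G25095, MIR156g as AT2G19425, MIR156h as AT5G55835, MIR157a as AT1G66783 and MIR157d as AT1G48742. As background, the mature sequence called miR156a is also made from MIR156b to MIR156f, and that called miR157a from MIR157b and MIR157c, so neither probe reports on a single locus.

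Where the targets differ is shown next, over the 20 bases that all of them share, with the bases that differ from miR156a in capitals.
miR156a: ugacagaagagagugagcac
miR156g: Cgacagaagagagugagcac
miR156h: ugacagaagaAagAgagcac
miR157d: ugacagaagaUagAgagcac
Positions are counted from 1 at the 5′ end of these 20 bases. miR156g differs from miR156a by U1C alone. From miR156a to miR156h the changes are G11A and U14A, and from miR156a to miR157d they are G11U and U14A. A single change, A11U, therefore separates miR156h from miR157d and from the shared part of miR157a. Outside these probes, the nearest of the 208 other targets was that of miR1886.1, at 6 edits from miR156a, and it was detected on 0 of the 4 arrays. Probes of such similar sequence can capture each other's miRNA, and no measure of how well these arrays kept them apart was given in the labels.

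The arrays differed in overall signal. Blank spots averaged a density of 86.5 on ABR17_salt, 111 on ABR17_control, 84.8 on WT_salt and 231 on WT_control. A miRNA was called detected where at least 50% of its spots exceeded the blank mean plus 3 blank SD, which was 98.3, 151, 101 and 298 in the same order. By this rule 59, 30, 54 and 39 miRNAs were detected, with 63 found on 1 array or more and 30 on every array. Of the SPL-targeting probes, miR156a, miR156g, miR157a and miR157d were detected on all 4 arrays, and miR156h on all but ABR17_control. Unless stated otherwise, levels are log2 densities after background correction and quantile normalisation, which assigns each rank 1 value across arrays. A difference of 0.00 is therefore a shared rank. A miRNA detected on either array of a comparison was counted if its log2 difference was 1 or more in size (2-fold) and its repeat spots did not overlap.

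**Figure D1:**
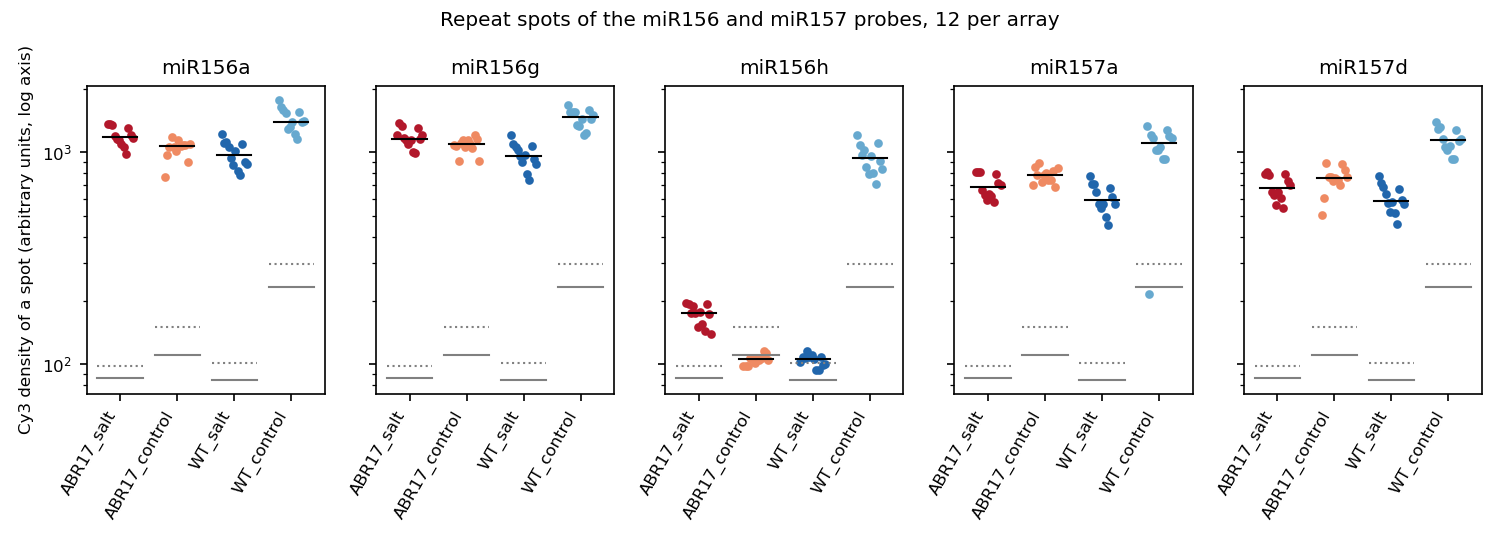
Cy3 density of the 12 repeat spots of each probe (log axis, arbitrary units) on each array, with the median (black line), the mean of the blank spots (grey line) and the detection threshold (dotted line). miR156h reached a median of 939 on WT_control, lay near the blank level on ABR17_control and WT_salt, and stood between on ABR17_salt, while the other probes lay far above the threshold on every array except for 1 spot of miR157a.

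The bright miR156a, which is the form shared by most MIR156 loci, was high on every array. Its spots ran from 983 to 1369 (median 1183) on ABR17_salt, from 766 to 1177 (median 1067) on ABR17_control, from 779 to 1219 (median 976) on WT_salt and from 1163 to 1768 (median 1398) on WT_control. Densities were thus highest on WT_control, the array with the brightest blank spots, and spots of neighbouring arrays in this order overlapped. After normalisation the levels were 10.15 ± 0.15 on ABR17_salt, 9.98 ± 0.18 on ABR17_control, 10.21 ± 0.21 on WT_salt and 10.07 ± 0.20 on WT_control (SD of 12 spots). These span 9.98 to 10.21, about the SD of the spots on 1 array, and no neighbours in the order differed beyond it.

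For miR156g, which shares the seed and all but the first base of miR156a, the median spot was 1159 on ABR17_salt, 1092 on ABR17_control, 963 on WT_salt and 1470 on WT_control. The lowest of its spots, at 738 on WT_salt, was far above the detection threshold of that array. Normalised levels were 10.07 ± 0.15, 10.01 ± 0.13, 10.15 ± 0.21 and 10.15 ± 0.17 in the same order. The order of the densities was that of miR156a. Densities on WT_control lay above all those on ABR17_control and WT_salt, whereas the normalised spots overlapped between all arrays.

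The pair of miR157 probes, whose targets share 20 bases, was dimmer and also ran closely together. On miR157d the median spot was 676 on ABR17_salt, 760 on ABR17_control, 591 on WT_salt and 1147 on WT_control. On miR157a it was 684, 782, 594 and 1110 in the same order. Densities of both probes thus ordered the arrays as WT_control, ABR17_control, ABR17_salt and WT_salt, in contrast to the miR156a and miR156g probes, where ABR17_salt came before ABR17_control. Spots of the ABR17_salt, ABR17_control and WT_salt arrays overlapped for both probes, and those of WT_control lay above them except for 1 spot of miR157a. Normalised levels of miR157d were 9.11 ± 0.20 on ABR17_salt, 9.51 ± 0.24 on ABR17_control, 9.50 ± 0.23 on WT_salt and 9.51 ± 0.22 on WT_control. Those of miR157a were 9.36 ± 0.19, 9.59 ± 0.12, 9.51 ± 0.24 and 8.68 ± 1.10 in the same order.

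The wide SD of miR157a on WT_control came from a single spot. It read 216, below the blank mean of 231, while the other 11 spots ran from 933 to 1337. Neither the same place on the other arrays (809 on ABR17_salt, 851 on ABR17_control and 713 on WT_salt) nor any miR157d spot on WT_control (lowest 927) showed such a value. Without this spot the normalised level of miR157a on WT_control was 9.38. This setting was chosen after the data were seen, and it left out each spot below 50% of the median of its probe's spots on its array. It removed 3 of 2556 miRNA spots on WT_control and 0 on each of the other arrays.

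**Figure D2:**
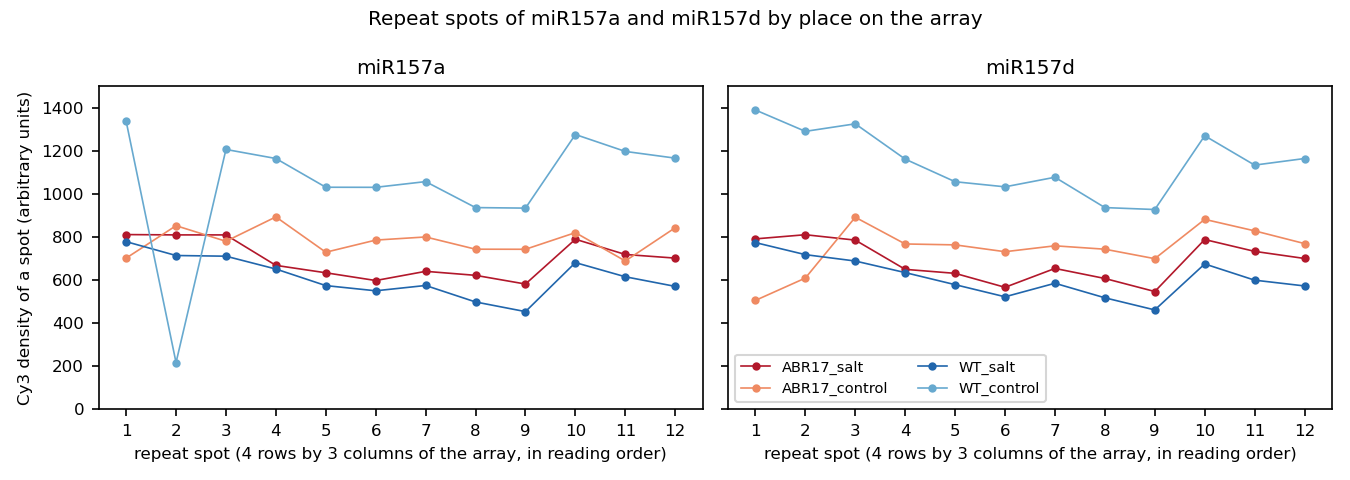
Density of the 12 repeat spots of miR157a and miR157d (linear axis, arbitrary units) in order of their place on the array, 1 line per array. Spot 2 of miR157a on WT_control reads 216, between spots of 1337 and 1205, and the lines of ABR17_salt and WT_salt run nearly parallel, while ABR17_control departs from them.

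The place of a spot on the array was part of the spread. For miR157d, the log2 densities of the 12 places correlated at r = 0.91 between ABR17_salt and WT_salt, 0.92 between ABR17_salt and WT_control and 0.96 between WT_salt and WT_control. For miR156a these pairs gave 0.87, 0.93 and 0.95. The ABR17_control array did not share the pattern, at r = −0.09 with ABR17_salt for miR157d and −0.47 for miR156a. The 12 places are repeats within single hybridisations, and the correlations describe that spread only. Differences taken place by place are given below where they add to the result, since a pattern common to both arrays drops out of them. They use normalised spots, and normalisation moves all spots of a probe on an array by 1 value. Counts of places can therefore change with the scaling.

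In contrast to its relatives, miR156h varied widely between arrays. Its spots ran from 138 to 196 (median 175) on ABR17_salt, from 97.9 to 116 (median 106) on ABR17_control, from 93.8 to 115 (median 106) on WT_salt and from 710 to 1204 (median 939) on WT_control. The spots of WT_control lay above all others, those of ABR17_salt came next without overlap, and those of ABR17_control and WT_salt overlapped. On ABR17_control 0 of 12 spots passed the detection threshold and the mean was below that of the blank spots. On WT_salt 8 of 12 passed, with a mean of 104.5 against a threshold of 101, so its level there sits at the limit of detection. Normalised levels were 7.37 ± 0.21 on ABR17_salt, 6.29 ± 0.12 on ABR17_control (not detected), 6.52 ± 0.12 on WT_salt and 9.11 ± 0.27 on WT_control.

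The authors' deposited table, in which the background correction and the scaling between arrays are not stated, gives miR156h as 98.6 on ABR17_salt, 19.1 on ABR17_control, 28.8 on WT_salt and 280 on WT_control. As in the spot densities, WT_control was highest and ABR17_salt next, while WT_salt and ABR17_control, whose spots overlapped, were the lowest. For miR156a that table has 1080, 982, 1207 and 902, and for miR157d it has 648, 679, 784 and 553 in the same order of arrays. WT_control, which had the highest spot densities of these miRNAs, is the lowest array for both of them there. Which array is highest thus depends on the scaling for miR156a and miR157d, but not for miR156h.

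The value of miR156h has to be read beside the hybridisation controls, since miR157d is 1 base away. After subtraction of the blank mean, miR156h had 84.9 on ABR17_salt, −5.85 on ABR17_control, 19.6 on WT_salt and 706 on WT_control. For miR157d these values were 601, 634, 525 and 915. On ABR17_control the miR156h spots therefore gave no signal above the blank spots on an array where both miR157 probes were bright. The calibration probe PUC2MM, whose content was not stated in the labels, read 3933 on ABR17_salt, 1065 on ABR17_control, 1759 on WT_salt and 11190 on WT_control above the blank mean. Its partner by name, PUC2PM, read 10739, 8400, 9582 and 20201, which gives the same order of arrays. PUC2MM was thus at 36.6%, 12.7%, 18.4% and 55.4% of PUC2PM, and these shares place the arrays in the same order as miR156h does. The other probes with MM in their names stayed near the blank mean on WT_control. PUC2MM-20B read 23.4 above it, a-PUC2MM2d 11.5, a2-PUC2MM-20B 9.29 and a3-PUC2MM-20B 9.84. None of them placed the arrays in the order of miR156h. Calibration probes without MM in their names included some that did. PUC2PM-20B read 397 on ABR17_salt, 3.91 on ABR17_control, 28.7 on WT_salt and 3433 on WT_control above the blank mean. Ctr03-3M05 read 26.5, −8.38, 19.1 and 381 in the same order of arrays. Like miR156h, these probes were near the blank mean on ABR17_control and WT_salt and highest on WT_control. That order (WT_control, ABR17_salt, WT_salt, ABR17_control) was also found in 12 of the 43 calibration probes (27.9%) and in 16 of the 63 miRNAs detected on any array (25.4%), miR156h included. Before subtraction of the blank mean, miR156h averaged 105.3 on ABR17_control and 104.5 on WT_salt. The order of these arrays for miR156h therefore depends on the subtraction. The part of probe specificity in the miR156h values was not tested.

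**Figure D3:**
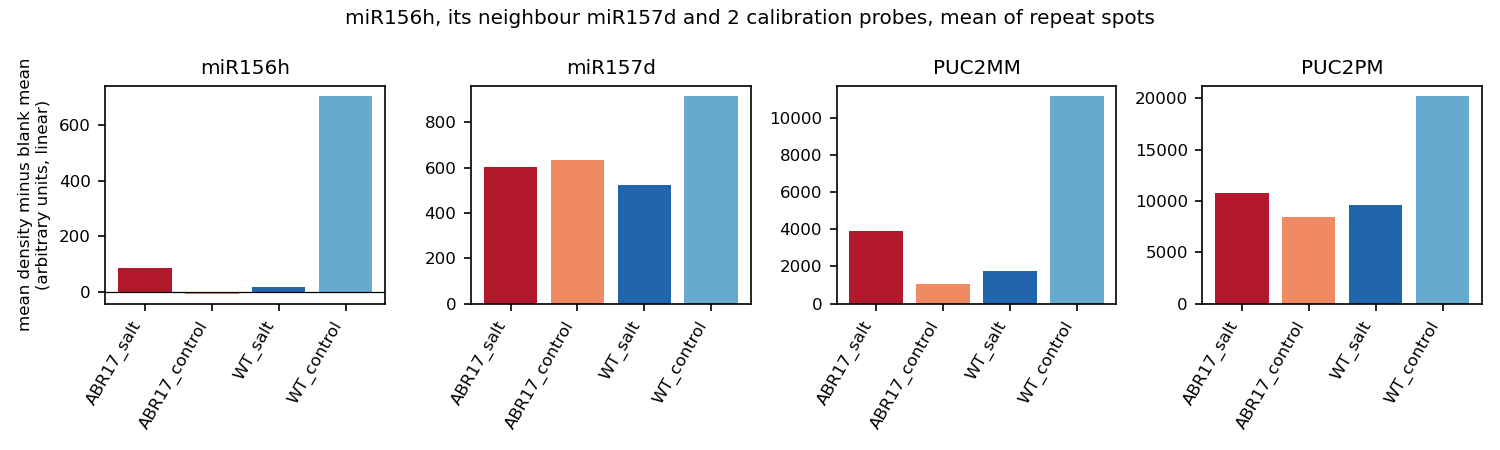
Mean density of the repeat spots minus the mean of the blank spots (linear axes starting at or below 0, arbitrary units) for miR156h, for miR157d, which differs from it by A11U, and for the calibration probes PUC2MM and PUC2PM. miR156h, PUC2MM and PUC2PM place the arrays in the same order, with WT_control highest (706, 11190 and 20201), while miR157d varies less, from 525 to 915.

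Salt in the wild type was read from WT_salt against WT_control. miR156h was lower with salt by a log2 difference of −2.60 ± 0.09 (SE of repeat spots), or 6.04-fold, and lower at 12 of 12 places on the array. It was the only SPL-targeting miRNA counted, 1 of 5, beside 8.62% of the 58 miRNAs detected on either array (5.17% lower and 3.45% higher). The difference was between −1.54 and −4.97 under the 13 alternative ways of processing and was counted under each. For the authors' deposited values, which have no repeat spots, it was counted on size alone. With detection at 6 blank SD miR156h was not detected on WT_salt, and the value (−2.11) is a bound. All 13 alternatives use the same WT_control array. The calibration probes PUC2MM and PUC2PM also stood highest there, and a part of hybridisation in this difference was not tested.

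The other probes showed no such difference. The log2 difference was 0.14 ± 0.08 for miR156a, 0.00 ± 0.08 for miR156g and −0.01 ± 0.09 for miR157d, all with overlapping spots. Place by place after normalisation, miR156a was higher on WT_salt at 12 of 12 places and miR157d at 6 of 12. In spot densities both were instead lower on WT_salt at every place. The sign of each of these 3 differences depends on the scaling. Without normalisation the differences were −0.43, −0.47 and −0.77, while centring on the median of the miRNAs detected on all arrays gave 1.31, 1.27 and 0.96. Without normalisation the 35 miRNAs detected on both arrays had a median difference of −0.92. Relative to that median, miR156a was at 0.49, miR156g at 0.45, miR157d at 0.14 and miR156h at −2.36.

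For miR157a the difference of 0.83 ± 0.33 rests on the single low spot of WT_control. Without it the difference was 0.13 ± 0.09, close to that of miR157d, and with the median of the spots it was 0.14. Leaving out the low spot also exchanged ranks on WT_control, and miR156h then differed by −2.17.

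Salt in the transgenic seedlings was read from ABR17_salt against ABR17_control. None of the 5 SPL-targeting miRNAs was counted, beside 1.69% of 59 miRNAs counted higher and 0% lower, which is 1 miRNA in all. miR156h was detected with salt and not without. Since ABR17_control sets only an upper limit for it, the difference is given as a bound of at least 0.08 (at least 1.06-fold higher). Its measured levels differed by 1.08 ± 0.07 and its spots did not overlap, with 12 of 12 places higher. The bound was positive under the 10 alternatives that gave one, from 0.06 to 0.23, and could not be formed under the other 3.

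Both miR157 probes were lower with salt in the transgenic seedlings, miR157d by −0.40 ± 0.09 and miR157a by −0.23 ± 0.06, each at 10 of 12 places and with overlapping spots. These were negative under all 13 alternatives, from −0.56 to −0.06 for miR157d and from −0.62 to −0.12 for miR157a, and none reached the size counted. miR156a differed by 0.17 ± 0.07 and miR156g by 0.06 ± 0.06. Both were negative with scaling on the calibration probes and on 5S rRNA, down to −0.24 for miR156a and −0.33 for miR156g. Relative to the median of the 30 miRNAs detected on both arrays without normalisation (−0.01), miR156a was at 0.25, miR156g at 0.16, miR157a at −0.14 and miR157d at −0.08.

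The transgene without salt was read from ABR17_control against WT_control. miR156h was again the only SPL-targeting miRNA counted, with a log2 difference of −1.83 at the bound (at least 3.55-fold lower in ABR17_control). Its measured levels differed by −2.82 ± 0.09, and it was lower at 12 of 12 places. This 1 of 5 stands beside 10.3% of 39 miRNAs counted, 5.13% lower and 5.13% higher. The bound lay between −2.65 and −1.18 under the 13 alternatives. This comparison and that of salt in the wild type share the WT_control array, so the lower values of miR156h in them are not independent.

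On the remaining probes, miR156a differed by −0.09 ± 0.08, miR156g by −0.14 ± 0.06 and miR157d by 0.00 ± 0.09 between ABR17_control and WT_control. Each of these had overlapping spots, and each took both signs over the alternatives, from −0.50 for miR157d without normalisation to 0.93 for miR156g with calibration scaling. The difference of 0.91 ± 0.32 for miR157a had no overlap of spots, but again contained the low spot and was 0.21 ± 0.07 without it. The bound of miR156h was −1.40 without that spot. The 30 miRNAs detected on both arrays had a median of −0.54 without normalisation, relative to which miR156a was at 0.17, miR156g at 0.22 and miR157d at 0.04.

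The transgene under salt was read from ABR17_salt against WT_salt, a comparison that does not use the bright WT_control array. 0 of 5 SPL-targeting miRNAs were counted, as were 0% of the 62 miRNAs detected on either array. The largest difference of the family was that of miR156h, at 0.85 ± 0.07 (1.80-fold higher in the transgenic seedlings), with no overlap of spots and 12 of 12 places higher. It was positive under all 13 alternatives, from 0.13 to 2.50, and exceeded the size counted under 2 of them, with a smaller normexp offset (1.17) and with the blank mean subtracted (2.50). PUC2MM was also brighter on ABR17_salt than on WT_salt (3933 against 1759 above blank), as was PUC2PM (10739 against 9582). A part of hybridisation in this difference was not tested.

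miR157d was lower in the transgenic seedlings under salt by −0.38 ± 0.09 after normalisation, although its spots overlapped. The difference was negative under 11 of 13 alternatives, such as −0.18 with cyclic loess and −0.26 from the values in the authors' deposited table. It was positive without normalisation (0.18) and with 5S rRNA scaling (0.25). Normalised spots of miR157d were lower on ABR17_salt at 12 of 12 places, whereas its spot densities were higher there at every place. Without normalisation the 51 miRNAs detected on both arrays had a median of 0.19, and relative to it miR157d stood at −0.01, miR157a at 0.01, miR156a at 0.11, miR156g at 0.10 and miR156h at 0.66. The normalised differences of miR156a, miR156g and miR157a were −0.06 ± 0.07, −0.08 ± 0.07 and −0.15 ± 0.09.

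**Figure D4:**
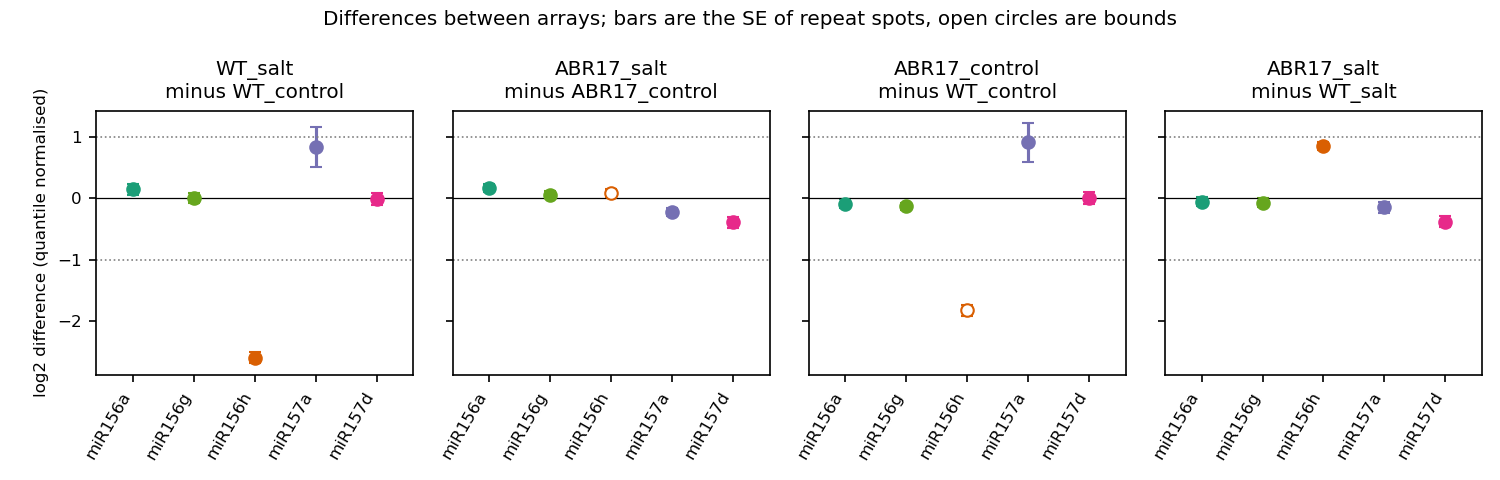
Log2 difference of each probe in the 4 comparisons after quantile normalisation, with the SE of repeat spots as bars and bounds as open circles. The bar of a bound is the SE of the measured difference. The dotted lines mark the size counted (1 on the log2 scale). miR156h is at −2.60 for WT_salt against WT_control and at a bound of −1.83 for ABR17_control against WT_control, and the wide bars of miR157a (0.83 and 0.91) contain its low spot on WT_control.

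Setting the salt responses of the genotypes against each other, the response of miR156h in the ABR17 seedlings exceeded that in the wild type by at least 2.68 on the log2 scale. From the measured levels the difference was 3.67 ± 0.11. The bound was positive under the 10 alternatives that gave a value, from 1.76 to 5.09. For miR157a the difference of the responses was −1.06 ± 0.33, which passed the size of 1, as did 26.7% of the 30 miRNAs detected on all 4 arrays. Without the low spot it was −0.34 ± 0.11, and it was 0.27 without normalisation. The others were −0.38 ± 0.13 for miR157d, 0.03 ± 0.11 for miR156a and 0.06 ± 0.10 for miR156g, and each of the 3 took both signs over the 13 alternatives. With 1 array in each group, these differences have no error from seedlings or between arrays.

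**Figure D5:**
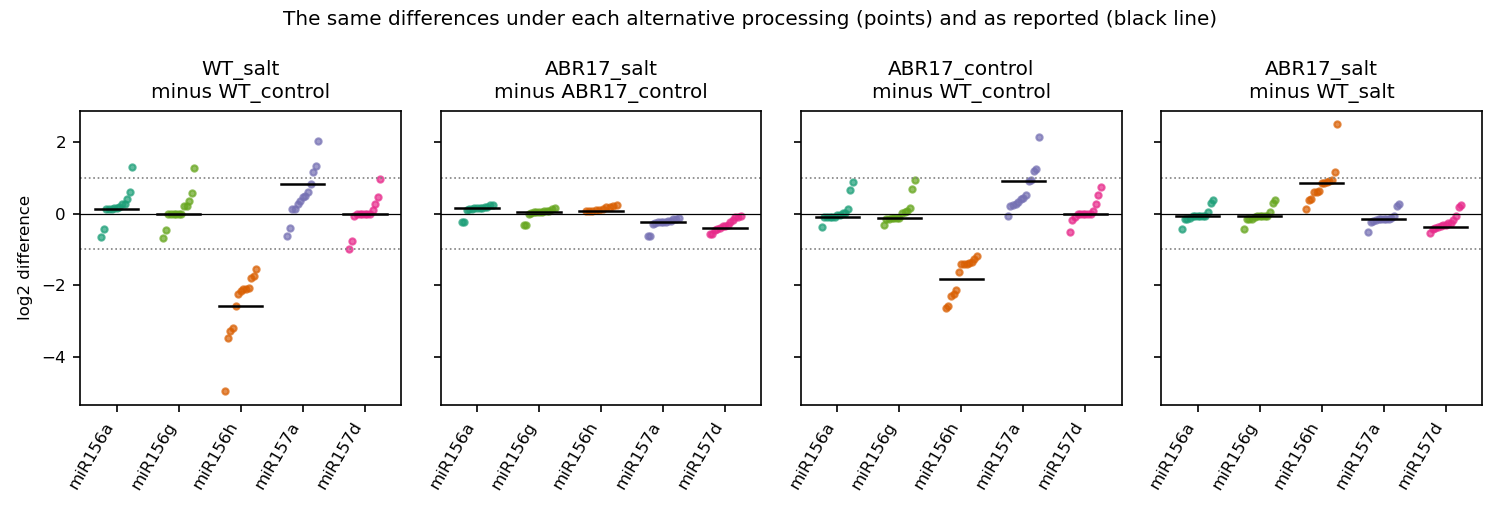
Log2 difference of each probe in the 4 comparisons under each alternative processing (points) and as reported (black lines), with dotted lines at the size counted. The points of miR156h stay below −1 in both comparisons with WT_control, whereas those of miR156a, miR156g and miR157d lie on both sides of 0 there.

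Other miRNAs that act on the juvenile-to-adult transition were set beside the family as a list of 13 probes: miR172, which limits AP2-like factors, miR159 (MYB33 and MYB65), miR319 (TCP factors), miR170 and miR171 (HAIRY MERISTEM factors, which bind SPL proteins) and miR390 (trans-acting siRNAs against auxin response factors). Of them 12 passed detection on 1 array or more, and 8 on every array. None of the 4 miR172 probes was detected on more than 2 arrays, and miR172c was detected on 0. The median difference of the list over members detected on both arrays was 0.04 for salt in the wild type (8 members), 0.00 for salt in the transgenic (8), 0.14 for the transgene without salt (8) and −0.01 for the transgene under salt (10). Over all miRNAs detected on both arrays the medians were 0.00, 0.00, 0.00 and −0.06. Only miR171a was counted, higher by 1.26 with salt in the wild type, and it was not above 0 under every scaling (from −0.90 to 1.05). That split of 1 higher and 0 lower turned to 0 higher and 2 lower without normalisation and to 0 higher and 5 lower with 5S rRNA scaling.

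Within that list, miR319c kept its sign under the 6 other scalings in each comparison. It was lower with salt in the wild type at −0.61 (from −2.50 to −0.55 under those scalings) and higher with salt in the transgenic at 0.71 (from 0.45 to 0.93). Above the blank mean, the calibration probes PUC2MM and PUC2PM differed in the same direction as miR319c in each comparison. A part of hybridisation in the miR319c differences was not tested. The levels of miR159a were 9.98 on ABR17_salt, 10.07 on ABR17_control, 10.07 on WT_salt and 10.01 on WT_control, a narrower range than that of miR156a. miR159b ran from 9.98 to 10.21 and miR159c from 9.36 to 9.50. For salt in the wild type miR319a differed by −0.55 and stayed negative under the 6 other scalings (from −2.32 to −0.37). The differences of miR171b (0.35) and miR390a (0.68) took both signs under them, from −0.97 to 0.98 and from −1.62 to 0.32.

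The patterns nearest to those of the family were looked up among the 30 miRNAs detected on all 4 arrays, as the root mean square difference between log2 levels centred over the 4 arrays. For miR156a the nearest were miR161.1 (0.03), miR156g (0.07) and miR160a (0.07). For miR156g they were miR166a and miR854a (0.06 each) and miR161.1 (0.06). These are bright probes, of which miR166a had the same normalised level on every array (10.64), while miR160a ran from 9.50 to 9.82. For miR157a they were miR163 (0.11), miR164c (0.11) and miR390a (0.16), each lowest on WT_control as miR157a is with its low spot, and for miR157d miR159a (0.14), miR167d (0.16) and miR156g (0.17). Over 4 arrays such likeness is a description only.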

How the data were processed

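Per the labels' protocols, total RNA of seedlings was enriched for small RNA, an adapter was ligated to 3′ ends, and a service provider ran the arrays with Cy3 staining. The authors deposited, per the file headers, the mean density of each of 3968 spots per array, a linear intensity whose blank spots lie above 0, and its SD within the spot, which was not used. They also deposited 1 processed intensity per miRNA and array by a method not given in the sources used here. Spot densities were corrected with normexp (limma 3.58.1 in R 4.3.3, offset 50), taken to log2, averaged over 12 spots and quantile normalised over all miRNAs. On data simulated from 1 array, the recovery of simulated differences was checked without normalisation only. Where only 1 array of a pair detected a miRNA, the undetected level was replaced by that array's lowest detected level unless it was higher itself, and the difference is a bound, given only where the detected array was brighter. Quantile normalisation compresses differences among bright probes. Alternatives numbered 13, of which 12 were planned: background correction, offset, 6 scalings, spot summary, detection and the deposited values as log2(value + 50). The deposited values have no repeat spots, so their differences were counted on size alone. With 1 array per group no test was made, and precision is limited by the number of arrays. All probes of the family were named, partners if detected on all 4 arrays (miR172c and the low spots of miR167d and miR398a were named after their values were seen), and the 3 nearest patterns of each. The members and lists were chosen with earlier results of these data known.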

Additional observations from a re-analysis of the deposited data

Results flagged for a closer look

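The salt responses of miR156h in the genotypes had opposite signs: at least 0.08 in the ABR17 seedlings against −2.60 in the wild type, a difference of at least 2.68 on the log2 scale. For miR157a the responses were −0.23 and 0.83, a difference of −1.06, which was −0.34 without the low spot on WT_control. Neither difference was tested, since each group has 1 array.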

How the results depend on the processing

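No paired analysis was possible because each group has 1 array, and for the same reason no replicate could be left out. Of 257 member differences in the 4 comparisons under the alternatives, 180 moved by less than the SD of the repeat spots, 77 moved by more, and 0 of the counted ones changed sign. Of the family, the 1 miRNA counted for salt in the wild type (lower) became 2 with the blank mean subtracted (1 higher) and 4 with median scaling (3 higher). The 1 counted (lower) for the transgene without salt became 2 with the blank mean subtracted, with offset 16 and with calibration scaling (1 higher in each). The 0 counted for salt in the transgenic remained 0 throughout, and the 0 for the transgene under salt became 1 (higher) with the blank mean subtracted and with offset 16. The 1 counted difference of salt responses (miR157a) became 4 (all negative) with median scaling and 0 with no background correction, no normalisation, the 75th percentile, cyclic loess, 5S rRNA scaling, the median of spots, the deposited values and without low spots; its value was above 0 without normalisation (0.27) and with 5S rRNA scaling (0.01). In the partner list, the 1 counted (higher) for salt in the wild type became 3 with the blank mean subtracted (1 higher, 2 lower) or median scaling (3 higher), 2 (both lower) with no normalisation, the 75th percentile or calibration scaling, 5 (all lower) with 5S rRNA scaling, 1 that was lower with cyclic loess and 0 in the deposited values. Its 0 for salt in the transgenic became 1 (lower) with the blank mean subtracted. Its 0 for the transgene without salt became 3 with the blank mean subtracted (2 higher, 1 lower) or no normalisation (3 lower), 1 (higher) with offset 16, and 2 with the 75th percentile (2 lower), cyclic loess (1 higher, 1 lower), calibration (2 higher) or 5S rRNA scaling (2 lower). Its 0 for the transgene under salt became 1 (higher) with the blank mean subtracted, no normalisation or 5S rRNA scaling. The causes were not tested, except that the low spot is left out by construction. Signal over background limits miR156h on ABR17_control and WT_salt.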

Other observations

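On WT_control, 1 repeat spot each of miR167d and miR398a also fell below 50% of the median of its probe, at 391 against 761 to 1008 for the other 11 spots of miR167d and at 392 against 797 to 970 for those of miR398a. No such spot was found on the other 3 arrays.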
